A study of Arabidopsis thaliana with 72 samples.

Results

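Shoots of Arabidopsis thaliana seedlings held for 12 h at 10 kPa were compared with shoots held for 12 h at 97 kPa. The 6 arrays, 3 at each pressure, were taken by the tissue, pressure and time in the sample titles from a series of 72 arrays, which followed shoots and roots at both pressures for 1, 3, 6, 12, 48 and 72 h. The 10 kPa chambers held 2.1 kPa of oxygen and the 97 kPa chambers held 21 kPa, both with 0.05 kPa of carbon dioxide in nitrogen and under constant light. Total pressure and oxygen therefore changed together, and their parts in any difference cannot be told apart. All plants were of the ecotype Wassilewskija, light-grown on vertical agar plates with benomyl and 10 days old at transfer, and the labels name no mutation or transgene. Each array carried the RNA of the aerial parts, hypocotyl included, of about 12 plants pooled in a tube of RNAlater, with 1 tube taken from each of 3 chambers run at the same time. The roots of the same tubes were put on other arrays of the series. The control is called 97 kPa here, as in most labels, although the sample descriptions write 101 kPa for it.

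Plant cells that run short of oxygen cannot respire fully, and they turn to glycolysis and fermentation for their energy. Pyruvate decarboxylase and alcohol dehydrogenase carry out the fermentation, and transcription factors that are destroyed while oxygen is plentiful switch on a shared core of low-oxygen genes. A shortage of energy or sugar is read by the SnRK1 kinase, which is known to favour genes for recycling and for the breakdown of amino acids over genes for growth and storage. Leaves in the light differ from roots in that photosynthesis releases oxygen and makes sugar inside the tissue.

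The values are the deposited MAS5 signals of the ATH1 array, in units scaled to a trimmed mean of 500 on every array. Differences are of log2(signal + 8.90), 10 kPa minus 97 kPa, so the change of a dim probe set is understated, and a call means an adjusted p under 0.05 in limma. The median signal was 164 to 171 units on the 10 kPa arrays and 163 to 174 units on the 97 kPa arrays. Correlations between arrays were 0.960 to 0.970 within a pressure and 0.927 to 0.950 between pressures. The 3′ to 5′ signal ratio of the GAPDH control, which rises as RNA is degraded, was 2.35 to 3.50 at 10 kPa and 2.28 to 3.13 at 97 kPa. That of the actin control was far higher, at 13.7 to 29.4 and 15.5 to 24.0, and that of the ubiquitin control was 3.46 to 4.06 and 3.38 to 4.48. The 8 mesophyll marker probe sets summed to 171016 to 186362 units at 10 kPa and 172087 to 185304 units at 97 kPa, against 4679 to 11920 units on the root arrays. The 2 root hair markers, EXPA7 and EXPA18, summed to 30.3 to 82.2 units in the 10 kPa shoots and 44.4 to 63.0 units in the 97 kPa shoots, against 327 to 987 units on the root arrays at both pressures. The guard cell lineage markers MUTE (AT3G06120) and SPCH (AT5G53210) summed to 116 to 191 units at 10 kPa and 90.2 to 147 units at 97 kPa. The shoot meristem marker CLV3 was at 5.31 to 8.32 units and 2.83 to 3.82 units, all below the pseudocount of 8.90 and too low for the test. On the root arrays CLV3 was at 7.05 to 23.8 units at 10 kPa and 17.5 to 30.2 units at 97 kPa, so its shoot values are not read as a change in meristem. In whole shoots, fewer cells of a type and less RNA per cell cannot be told apart. The array numbers ran from 12467 to 12471 for the 10 kPa shoots and from 12433 to 12437 for the 97 kPa shoots, so the order of the arrays and the pressure cannot be told apart.

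After 12 h, 1170 of 15766 tested probe sets differed between 10 kPa and 97 kPa shoots, which is 7.42% of those tested. Of these, 603 were higher at 10 kPa (3.82%) and 567 were lower (3.60%), while the median of all tested probe sets was 0.01. Which direction held more depends on the processing, since 511 were higher and 615 lower after median centring of the arrays, and without the first or the third 10 kPa array the lower ones were also more numerous. At least a 2-fold change was seen for 200 of the higher and 242 of the lower probe sets, and at least a 4-fold change for 47 and 50. The 3 values at 10 kPa lay beyond all 3 at 97 kPa for 1151 of the called probe sets, and for 4140 (26.3%) of all tested. A single gene could be named for 564 of the called probe sets, and the other 606 stay unnamed here, with changes of up to 4.03 and down to -5.65. The count of calls rests on all 6 arrays, since it was 716 without the third 97 kPa array, 720 without the second 10 kPa array and 747 without the second 97 kPa array.

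**Figure D1:**
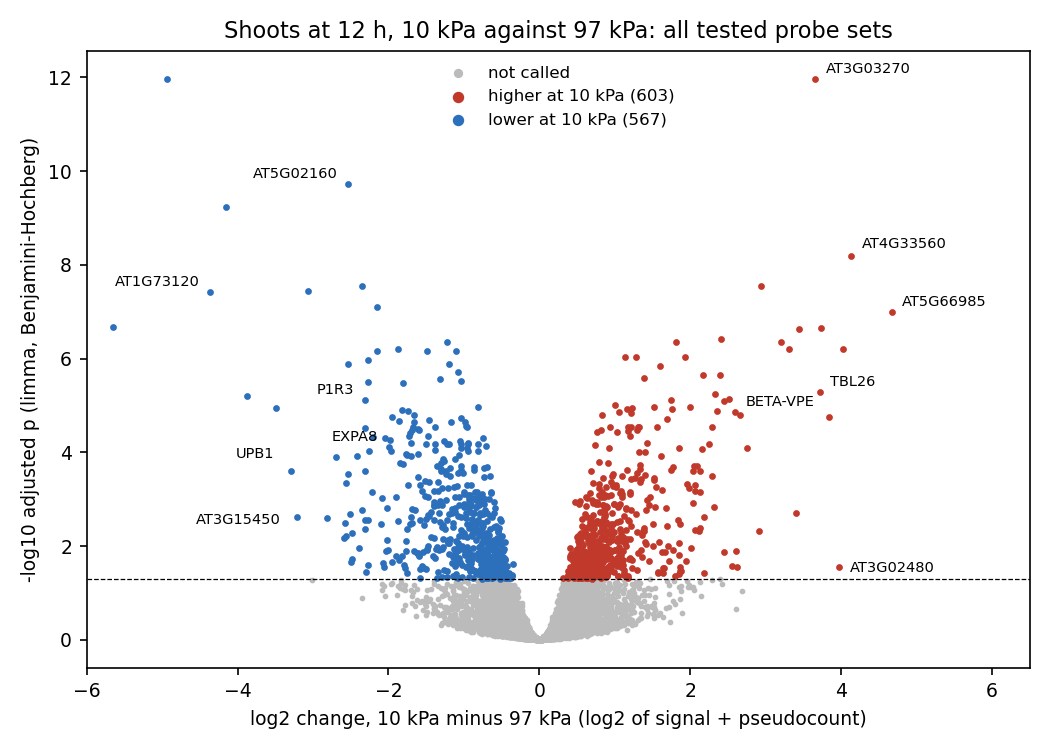
Each point is 1 tested probe set, with the log2 change at 12 h (10 kPa minus 97 kPa shoots) on the horizontal axis and -log10 of the limma adjusted p on the vertical axis. The 603 red points are higher at 10 kPa, the 567 blue points are lower, grey points were not called, and the dashed line marks an adjusted p of 0.05. AT3G03270 stands highest among the named increases and AT5G02160 among the named decreases.

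Genes of the core low-oxygen list were among the largest increases, but most of the list did not pass the test at 12 h. The list holds 50 Arabidopsis genes known from other work to rise in many cell types when oxygen is short, of which 24 could be named on the array, and all 24 were tested. At 12 h, 8 of them rose and 1 fell (37.5%, against 7.42% of all probe sets), and 15 were not called. The median over all 24 was 0.97 against 0.01 over all probe sets. The number that rose lay between 6 and 13 over the other ways of processing the data, and 1 fell in each. The 12 largest named increases included 5 of the list's members. The 12 largest changes each way were picked from calls whose groups did not overlap, so their lack of overlap is no further result.

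Most of these genes carry only a locus number in the tables used here, so no function is given for them. AT5G66985 showed the largest named increase, at 885, 725 and 309 units in the 10 kPa shoots, against 8.77, 10.2 and 28.5 units in the 97 kPa shoots. The lowest 10 kPa shoot was above the highest 97 kPa shoot, and the log2 change was 4.67 ± 0.50 (SE, adjusted p = 1.01e-07). Its low level at 97 kPa makes the size depend on the pseudocount, which moved it between 2.94 and 5.42. AT4G33560 was measured at 1735, 2859 and 874 units in the 10 kPa shoots, against 73.6, 76.98 and 106 units in the 97 kPa shoots, again with no overlap between the groups. That was a log2 change of 4.13 ± 0.38 (SE, adjusted p = 6.52e-09). AT3G03270 had the brightest signal of these members' probe sets at 10 kPa, with 4661, 7451 and 5568 units in the 10 kPa shoots, against 437, 493 and 425 units in the 97 kPa shoots. All 3 of its 97 kPa values lay close together, and the log2 change of 3.66 ± 0.24 had the smallest Benjamini-Hochberg adjusted p of the list in limma (adjusted p = 1.07e-12).

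AT2G17850 was at 585, 825 and 383 units in the 10 kPa shoots, against 54.1, 72.8 and 29.996 units in the 97 kPa shoots, a log2 change of 3.31 ± 0.39 (SE, adjusted p = 6.19e-07). AT3G29970 was at 807, 2068 and 830.2 units in the 10 kPa shoots, against 177, 84.5 and 94.9 units in the 97 kPa shoots, a log2 change of 3.21 ± 0.37 (SE, adjusted p = 4.36e-07). In both genes the second 10 kPa shoot was the highest of the 6 and the groups did not overlap. AT5G10040 rose by 2.45 ± 0.64 (SE, adjusted p = 0.0132), at 132, 276 and 98.2 units at 10 kPa and 29.4, 10.8 and 26.2 units at 97 kPa. AT3G27220 and AT4G17670 rose less, by 1.52 ± 0.28 and 1.14 ± 0.29 on the log2 scale. Their signals were 517 ± 25.8 units at 10 kPa and 176 ± 25.6 units at 97 kPa for AT3G27220 (SD, n = 3 each). For AT4G17670 the signals were 1085 ± 286 units at 10 kPa and 481 ± 101 units at 97 kPa, and neither gene's groups overlapped.

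The single member of the list that fell was AT2G15880. It was at 89.9, 27.8 and 28.003 units in the 10 kPa shoots, against 229.8, 278 and 290.4 units in the 97 kPa shoots, a log2 change of -2.42 ± 0.40 (SE, adjusted p = 1.19e-04), and all 10 kPa values lay below all 97 kPa values. Among the 15 members not called was PDC2 (AT5G54960), a pyruvate decarboxylase of the fermentation pathway, at 819, 512 and 572 units in the 10 kPa shoots, against 395, 402 and 418 units in the 97 kPa shoots. Its groups did not overlap, but the log2 difference of 0.61 ± 0.23 had an adjusted p of 0.104. CML38 (AT1G76650), a calmodulin-like protein, showed a log2 difference of 1.23 ± 0.44 with an adjusted p of 0.0861. AT1G33055, AT4G27450 and AT4G10270 showed 1.27, 1.12 and 0.89 with adjusted p-values of 0.119, 0.0823 and 0.104. AT3G10040 was level at -0.14 ± 0.50, with overlapping groups.

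**Figure D2:**
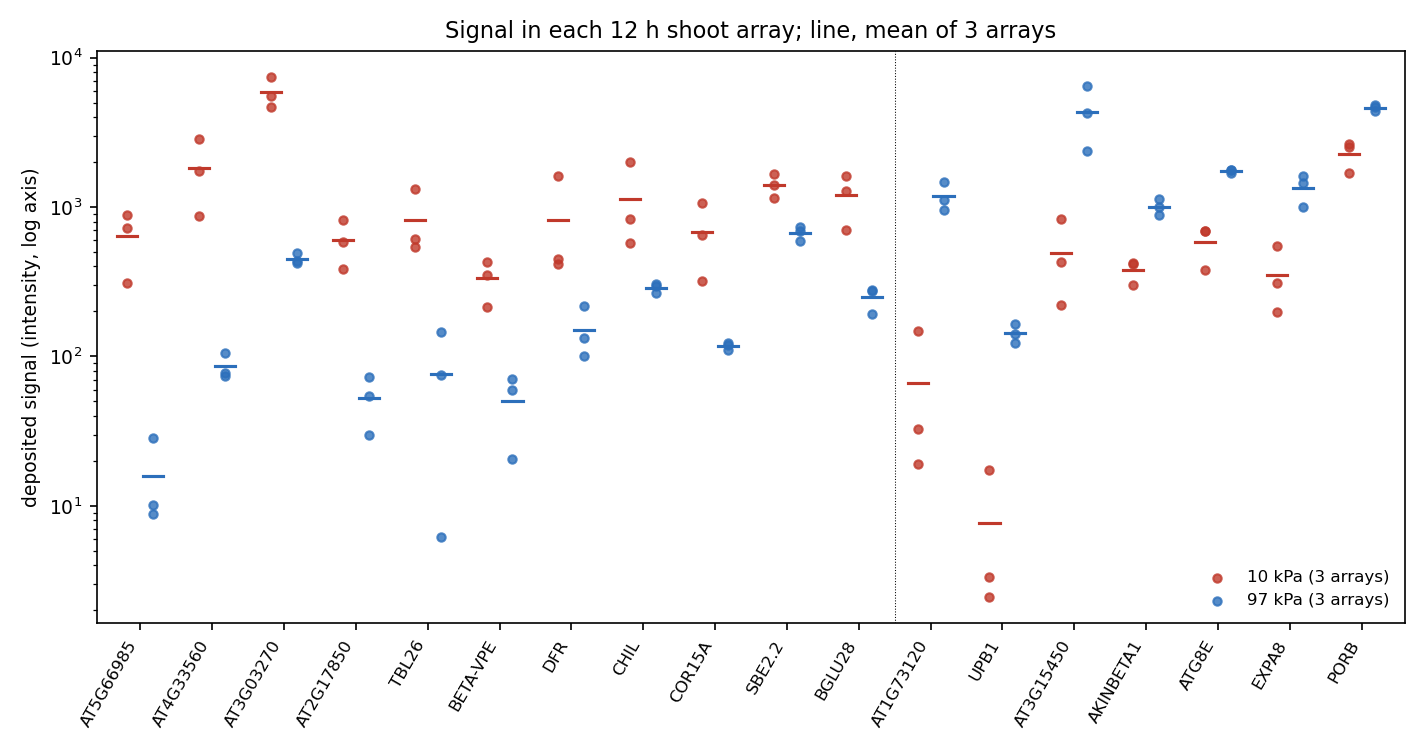
Deposited signal, on a log axis, of 18 named genes in each of the 6 shoot arrays at 12 h, with the 3 arrays at 10 kPa in red on the left of each pair, the 3 at 97 kPa in blue on the right, and a line at each mean. Genes left of the dotted line were higher at 10 kPa and genes right of it were lower, and in none of them do the groups overlap.

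The low-oxygen list was called most widely at 1 h and less so later. In shoots, 17 of the 24 members rose at 1 h and none fell, 13 rose at 3 h, and 12 rose and 1 fell at 6 h, before the 8 and 1 at 12 h. At 48 h, 10 rose and 3 fell, and at 72 h 5 rose and 8 fell. The share of all probe sets called was 4.37% at 1 h, 5.41% at 3 h, 11.7% at 6 h, 23.8% at 48 h and 19.9% at 72 h. Over the list the median change was 2.003, 1.18, 0.98, 0.97, 0.35 and -0.38 at the 6 times in order. AT4G33560 had log2 changes of 4.42, 4.09, 4.60, 4.13, 2.13 and 1.23, each called. AT3G29970 was called at all 6 times too, with 3.65, 4.04, 4.07, 3.21, 3.08 and 3.55. AT2G15880 had 0.01 at 1 h and -0.53 at 3 h, neither called, and fell by 1.21 at 6 h, 2.42 at 12 h and 2.89 at 48 h. The test of the 12 h effect against the mean of 1 h and 3 h called only this member of the list, at -2.16 ± 0.50 (SE, adjusted p = 0.0317), where 0.615% of all probe sets were called, and the call was lost when any 12 h array but the first at 10 kPa was left out.

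Roots of the same tubes moved more of the list in 1 direction. At 12 h, 21 of the 24 members rose in roots and none fell, with a median of 3.19, where 12.0% of all probe sets were called. The pressure effect was smaller in shoots than in roots for 13 members and larger for none, by the test of the difference between the tissues, which called 5.21% of all probe sets. The median difference of the list, shoots minus roots, was -2.13 against 0.07 over all probe sets. The widest gap was that of AT3G29970, which in shoots averaged 1235 ± 722 units at 10 kPa and 119 ± 50.4 units at 97 kPa and in roots 33492 ± 4764 units at 10 kPa and 99.2 ± 46.3 units at 97 kPa (SD, n = 3 each). The difference of the log2 changes, shoots minus roots, was -5.14 ± 0.58 (SE, adjusted p = 6.03e-09). AT5G10040 likewise averaged 21583 ± 2999.7 units at 10 kPa and 209.97 ± 67.2 units at 97 kPa in roots, and its difference was -4.22 ± 0.79 (SE, adjusted p = 2.87e-04). PDC2 differed by -1.75 ± 0.32 (SE, adjusted p = 1.63e-04) and AT4G10270 by -3.89 ± 0.62 (SE, adjusted p = 2.21e-05), both with a rise in roots and no call in shoots. AT5G66985 changed alike within the error, with a difference of 0.20 ± 0.71 (adjusted p = 0.934).

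**Figure D3:**
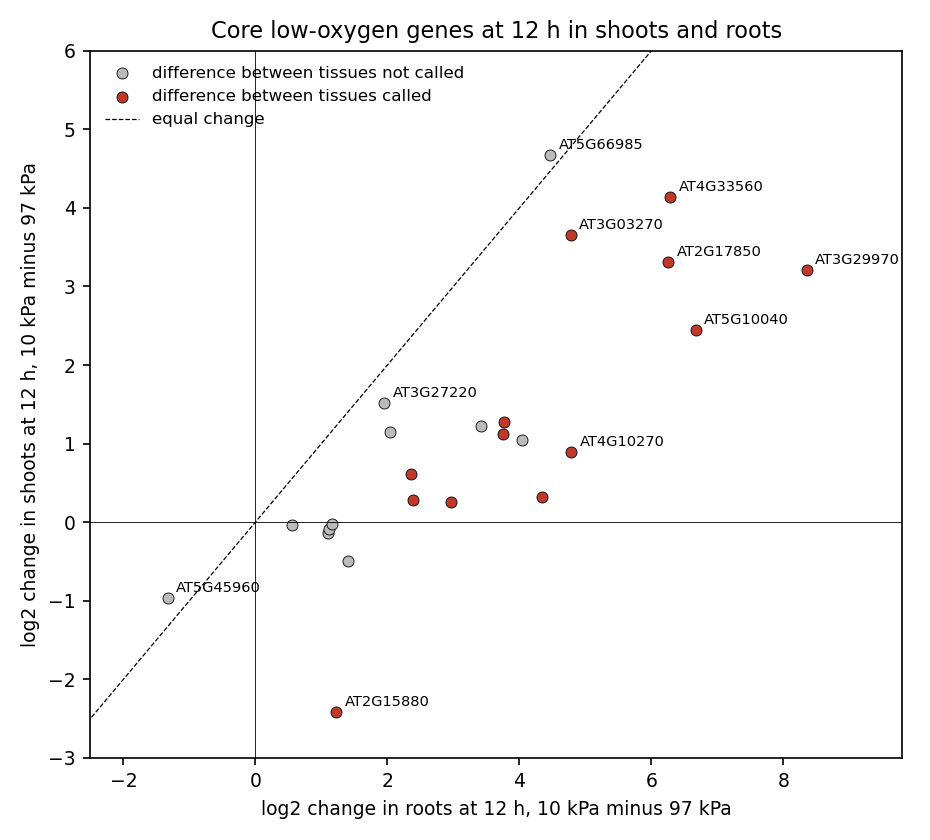
Each point is a core low-oxygen gene, with its log2 change at 12 h (10 kPa minus 97 kPa) in shoots on the vertical axis and in roots on the horizontal axis, and the dashed line marks equal change. The 13 red points, whose change differed between the tissues, all lie below the line, AT3G29970 farthest to the right.

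Of 5 probe sets for fermentation, glycolysis and sucrose breakdown, 2 rose and none fell, with a median of 0.52 and a range of 0.26 to 0.61. TPI (AT3G55440), the triose phosphate isomerase of glycolysis, was at 8319, 11327 and 9017 units in the 10 kPa shoots, against 6058, 7238 and 6179 units in the 97 kPa shoots, a log2 change of 0.55 ± 0.14 (SE, adjusted p = 0.00968). GAPC2 (AT1G13440), the cytosolic glyceraldehyde-3-phosphate dehydrogenase, was at 14795, 17479 and 15844 units in the 10 kPa shoots, against 10357, 11127 and 12044 units in the 97 kPa shoots, a log2 change of 0.52 ± 0.13 (SE, adjusted p = 0.00735). Neither gene's groups overlapped, but both calls rested on the second 10 kPa array, without which TPI was at 0.42 (adjusted p = 0.104) and GAPC2 at 0.46 (adjusted p = 0.0571). TPI lost its call without the third 97 kPa array as well.

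In the lists for sugar supply, 3 sugar starvation genes fell and 2 starch genes rose. Of 8 starvation-list probe sets, 3 fell and none rose (37.5%, against 7.42% of all probe sets), with a median of -0.53. AKINBETA1 (AT5G21170), a regulatory subunit of SnRK1 whose transcript is known to build up when sugar is scarce, was at 418, 299 and 419 units in the 10 kPa shoots, against 878, 997 and 1132 units in the 97 kPa shoots. Its values did not overlap, and its log2 change was -1.39 ± 0.30 (SE, adjusted p = 0.00277). MCCA (AT1G03090), a carboxylase subunit of leucine breakdown in mitochondria, was at 169, 204 and 196 units in the 10 kPa shoots, against 497, 471 and 573 units in the 97 kPa shoots, a log2 change of -1.39 ± 0.34 (SE, adjusted p = 0.00689). Its partner subunit MCCB (AT4G34030) showed -0.53 ± 0.18 and was not called. ATL8 (AT1G76410), a RING-finger protein, fell by 1.59 ± 0.42 (SE, adjusted p = 0.0154). The call ended without the second or the third 10 kPa array or the second 97 kPa array. AKINBETA1 was called lower at all 6 times, and the difference between the effects at 12 h and 6 h was called neither for it (0.64) nor for ATL8 (0.27). AKINBETA1 fell further in shoots than in roots, with a difference of -1.58 ± 0.36 (SE, adjusted p = 0.00339).

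Among 7 starch probe sets, 2 rose and none fell (28.6%, against 7.42% of all probe sets), with a median of 0.76. SBE2.2 (AT5G03650), a starch branching enzyme, was at 1158, 1661 and 1415 units in the 10 kPa shoots, against 594, 687 and 731 units in the 97 kPa shoots, a log2 change of 1.05 ± 0.21 (SE, adjusted p = 0.00131) with no overlap. APL3 (AT4G39210), a large subunit of ADP-glucose pyrophosphorylase, the enzyme that supplies starch synthesis, was at 115, 318 and 230.1 units in the 10 kPa shoots, against 85.3, 48.8 and 78.2 units in the 97 kPa shoots. Its log2 change of 1.45 ± 0.40 (SE, adjusted p = 0.0209) was lost without the second or the third 10 kPa array or the second 97 kPa array. Neither gene was called at 1 h or 3 h, and both were called at 6 h, at 1.34 and 2.12. Of 15 sugar transport probe sets, 3 rose and none fell (20.0%, against 7.42% of all probe sets), with a median of 0.09. TMT2 (AT4G35300), which carries sugar into the vacuole, was at 583, 562 and 561 units in the 10 kPa shoots, against 319, 316 and 326 units in the 97 kPa shoots, a log2 change of 0.81 ± 0.19 (SE, adjusted p = 0.00511) with little spread in either group. SWEET16 (AT3G16690), a sugar facilitator of the vacuole membrane, averaged 256 ± 43.3 units at 10 kPa and 119.6 ± 16.7 units at 97 kPa, a log2 change of 1.04 ± 0.25 (SE, adjusted p = 0.00660). SWEET1 (AT1G21460), a sugar facilitator, rose by 0.59 ± 0.18 (SE, adjusted p = 0.0367) although its groups overlapped, at 722, 608 and 1024 units at 10 kPa and 468, 419 and 665 units at 97 kPa. Both SWEET calls could be ended by leaving out 1 array, for SWEET16 the second at 10 kPa, and for SWEET1 the first or the third at 10 kPa or the first or the second at 97 kPa. SWEET1 was also not called after quantile normalization, median centring, with no variance trend or with only the arrays of the comparison (adjusted p from 0.05004 to 0.133). SWEET11 (AT3G48740), a phloem-loading sugar exporter, was not called and had overlapping groups, with a difference of -0.16 ± 0.24.

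Flavonoid genes had the highest list median at 12 h. Of 7 flavonoid and anthocyanin probe sets, 5 rose and none fell (71.4%, against 7.42% of all probe sets). The median was 1.21 against 0.01 over all probe sets. DFR (AT5G42800), the dihydroflavonol reductase at the entry to anthocyanins, was at 414, 1604 and 447 units in the 10 kPa shoots, against 217, 133 and 99.99 units in the 97 kPa shoots. CHIL (AT5G05270), a chalcone isomerase-like protein, was at 575, 2008 and 826 units in the 10 kPa shoots, against 268, 304 and 294 units in the 97 kPa shoots. The groups did not overlap in either gene, and the second 10 kPa shoot was well above the other two in both. The log2 changes were 2.16 ± 0.35 (SE, adjusted p = 8.53e-05) for DFR and 1.74 ± 0.31 (SE, adjusted p = 2.43e-04) for CHIL. Both flavonol glycosyltransferases of the list rose, UGT78D1 (AT1G30530) by 1.21 ± 0.27 (SE, adjusted p = 0.00370) and UGT78D2 (AT5G17050) by 0.76 ± 0.22 (SE, adjusted p = 0.0283). UGT84A3 (AT4G15490), which attaches glucose to phenolic acids, rose by 0.76 ± 0.21 (SE, adjusted p = 0.0173). The second 10 kPa array carried part of this, since without it 3 of the 7 were called and the median was 0.96, with UGT78D1 at 0.91 (adjusted p = 0.0633) and UGT78D2 at 0.41 (adjusted p = 0.333). UGT78D2 also lost its call without any 1 of the 97 kPa arrays. The second 10 kPa array also had the highest GAPDH and actin 3′ to 5′ ratios of the 6, at 3.50 and 29.4, but not the highest ubiquitin ratio. With the mean 3′ to 5′ ratio of the control genes as a covariate 5 of the 7 were again called. That fit takes a common slope over all 36 shoot arrays, so it cannot settle what sets a single array apart. Whether RNA quality has a part in the high values of the second 10 kPa array was not tested. CHIL rose more in shoots than in roots, by 2.18 ± 0.38 (SE, adjusted p = 1.07e-04), and was the single member of the list for which that difference was called.

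The UDP-sugar transferases are enzymes that attach sugars to small molecules such as hormones and phenolics. Among 28 tested, 6 rose and none fell (21.4%, against 7.42% of all probe sets), with a median of 0.18. Without the second 10 kPa array 2 of them were called higher, and leaving out any other single array left 3 or 4. UGT78D1, UGT78D2 and UGT84A3, given above, are also counted here. UF3GT (AT5G54060), an anthocyanin xylosyltransferase, was at 138, 287 and 118 units in the 10 kPa shoots, against 31.9, 43.1 and 56.4 units in the 97 kPa shoots, a log2 change of 1.77 ± 0.46 (SE, adjusted p = 0.0122), and its call was lost without the second 10 kPa array or the first 97 kPa array. UGT73C1 (AT2G36750) was dim at 97 kPa, with 150.3, 59.8 and 237 units in the 10 kPa shoots, against 8.69, 20.5 and 13.6 units in the 97 kPa shoots. Its log2 change was 2.62 ± 0.76 (SE, adjusted p = 0.0274), between 1.29 and 3.26 by the pseudocount, and the call was lost without any 1 of 5 arrays, all but the second at 10 kPa. GT72B1 (AT4G01070), which attaches glucose to xenobiotics and phenolics, rose by 0.94 ± 0.26 (SE, adjusted p = 0.0192), and was not called without the first or the second 10 kPa or the second or the third 97 kPa array.

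The photosynthesis lists were called at shares on both sides of the 7.42% of all probe sets. Of 10 photosystem and antenna probe sets of the nucleus, 1 rose and none fell (10.0%), with a median of -0.04. That 1 was LHCB4.3 (AT2G40100), a minor antenna protein of photosystem II, at 3939.8, 7433 and 4790.4 units in the 10 kPa shoots, against 2725, 3595 and 3609.9 units in the 97 kPa shoots. Its change of 0.66 ± 0.18 (SE, adjusted p = 0.0161) ended without the second 10 kPa or the first 97 kPa array. Among 8 chlorophyll and carotenoid probe sets tested, 2 fell and none rose (25.0%), with a median of -0.14. PORB (AT4G27440), which reduces protochlorophyllide in the light, was at 2526, 1686 and 2637 units in the 10 kPa shoots, against 4392, 4832 and 4669.8 units in the 97 kPa shoots, a log2 change of -1.04 ± 0.24 (SE, adjusted p = 0.00454) that was -0.84 (adjusted p = 0.0584) without the second 10 kPa array. CHLM (AT4G25080), the magnesium-protoporphyrin methyltransferase, fell by 0.58 ± 0.18 (SE, adjusted p = 0.0431), and its call was lost without 1 of 4 arrays, the first or the second at 10 kPa or the second or the third at 97 kPa. It was also lost after quantile normalization, with no filter on low values and with no variance trend (adjusted p from 0.0528 to 0.0746). None of 5 Calvin cycle and photorespiration genes was called by limma, with 1 at an unadjusted p under 0.05, the phosphoribulokinase PRK (AT1G32060) at -0.38 ± 0.15. None of 69 probe sets of the plastid genome was called by limma either, with 5 at an unadjusted p under 0.05 and a median of -0.17. Over all 15766 probe sets, 3037 had an unadjusted p under 0.05 in limma at 12 h. At 48 h, 12 of those 69 rose and 2 fell (20.3%, against 23.8% of all probe sets), and at 72 h 15 rose (21.7%, against 19.9%).

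Genes of recycling and of stress protection changed in both directions. Of 16 autophagy and senescence probe sets, 2 fell and 1 rose (18.8%, against 7.42% of all probe sets), with a median of -0.16. The pair that fell encode ATG8 proteins, which coat the membranes of autophagosomes. ATG8E (AT2G45170) was at 695, 379 and 689 units in the 10 kPa shoots, against 1681, 1759 and 1777 units in the 97 kPa shoots, and all 10 kPa values lay below all 97 kPa values. Its log2 change was -1.60 ± 0.24 (SE, adjusted p = 3.16e-05), and that of ATG8F (AT4G16520) was -0.74 ± 0.13 (SE, adjusted p = 2.15e-04). ATG8E was called lower at all 6 times, and its fall at 12 h was deeper than in roots, by -2.09 ± 0.36 (SE, adjusted p = 7.47e-05). SAG29 (AT5G13170), also known as SWEET15, a sugar transporter that rises in ageing leaves, was at 104, 211 and 294 units in the 10 kPa shoots, against 12.3, 50.7 and 83.3 units in the 97 kPa shoots, a log2 change of 2.01 ± 0.51 (SE, adjusted p = 0.0108) that was lost without the third 10 kPa or the first 97 kPa array. Of 17 probe sets for alternative respiration and reactive oxygen, 2 rose and none fell (11.8%, near the 7.42% of all probe sets). GR1 (AT3G24170), a glutathione reductase, was at 1726, 1840.3 and 1668 units in the 10 kPa shoots, against 900.3, 1102 and 1031 units in the 97 kPa shoots, a log2 change of 0.79 ± 0.15 (SE, adjusted p = 4.68e-04). SAPX (AT4G08390), the ascorbate peroxidase of the chloroplast stroma, averaged 1237 ± 212 units at 10 kPa and 717 ± 79.4 units at 97 kPa, a log2 change of 0.77 ± 0.17 (SE, adjusted p = 0.00326), and its rise was larger than in roots, by 1.23 ± 0.27 (SE, adjusted p = 0.00241).

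Of 7 abscisic acid, cold and dehydration probe sets, 2 rose and none fell (28.6%, against 7.42% of all probe sets), with a median of 0.38. COR15A (AT2G42540), a chloroplast protein that protects membranes in the cold, was at 318, 1065 and 646 units in the 10 kPa shoots, against 123, 119 and 109.8 units in the 97 kPa shoots. All 10 kPa values were higher, with the second highest of all, and the log2 change was 2.28 ± 0.41 (SE, adjusted p = 3.26e-04). COR15B (AT2G42530), its close relative, rose by 1.06 ± 0.28 (SE, adjusted p = 0.0158), a call lost without the first or the third 10 kPa or the third 97 kPa array, and whether its probes also bind COR15A RNA was not tested. In the metal list CCS (AT1G12520), the copper chaperone of superoxide dismutase, was the 1 of 7 that fell (14.3%, against 7.42% of all probe sets). It was at 542, 271 and 539 units in the 10 kPa shoots, against 1111, 1206 and 1327 units in the 97 kPa shoots. Its log2 change was -1.48 ± 0.32 (SE, adjusted p = 0.00214), and it was called lower at 6, 12, 48 and 72 h. Of 8 glutathione transferases, 1 fell, GSTU18 (AT1G10360) at -0.72 ± 0.19, and of 14 cytochromes P450, 1 fell, CYP71B24 (AT3G26230) at -1.14 ± 0.25. These are 12.5% and 7.14% of the lists, near the 7.42% of all probe sets. The GSTU18 call was lost without the second array of either pressure or the third at 97 kPa.

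Of 34 cell wall probe sets, 3 rose and none fell (8.82%, near the 7.42% of all probe sets), with a median of 0.15. TBL26 (AT4G01080), of the trichome birefringence-like family that adds acetyl groups to wall polysaccharides, was at 609, 1319 and 539 units in the 10 kPa shoots, against 74.9, 146 and 6.197 units in the 97 kPa shoots. Its groups did not overlap, the 97 kPa values spread widely, and the log2 change was 3.72 ± 0.50 (SE, adjusted p = 5.19e-06), between 2.63 and 4.21 by the pseudocount. GH9B8 (AT2G32990), a glycosyl hydrolase of the endoglucanase family, averaged 962 ± 457 units at 10 kPa and 328 ± 137 units at 97 kPa, a log2 change of 1.51 ± 0.34 (SE, adjusted p = 0.00333) that was 1.15 (adjusted p = 0.0571) without the second 10 kPa array. TBL28 (AT2G40150) rose by 0.72 ± 0.21 (SE, adjusted p = 0.0281), and its call was lost when any 1 of 5 arrays, all but the third at 10 kPa, was left out. Of 16 expansin and XTH probe sets, which loosen or remodel walls, 1 fell and 1 rose (12.5%). EXPA8 (AT2G40610), an alpha-expansin, was at 550.2, 199.8 and 309 units in the 10 kPa shoots, against 1609, 1446 and 997 units in the 97 kPa shoots, a log2 change of -1.999 ± 0.32 (SE, adjusted p = 7.87e-05), and it was called lower at all 6 times. EXPB3 (AT4G28250), a beta-expansin, was at 471, 721 and 359.7 units in the 10 kPa shoots, against 255, 196 and 231 units in the 97 kPa shoots, a log2 change of 1.10 ± 0.26 (SE, adjusted p = 0.00633) that was 0.84 (adjusted p = 0.0840) without the second 10 kPa array.

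Jasmonate and defence genes were split. Of 12 jasmonate-list probe sets, 1 rose and 2 fell (25.0%, against 7.42% of all probe sets), with a median of -0.25. JMT (AT1G19640), which makes methyl jasmonate, was at 130.4, 187 and 49.1 units in the 10 kPa shoots, against 16.5, 15.8 and 2.303 units in the 97 kPa shoots, a log2 change of 2.60 ± 0.67 (SE, adjusted p = 0.0125) that ranged from 1.17 to 3.65 with the pseudocount and was lost without the second 10 kPa or the third 97 kPa array. PDF1.4 (AT1G19610), a plant defensin, was at 50.6, 71.1 and 79.6 units in the 10 kPa shoots, against 282, 402 and 453 units in the 97 kPa shoots, a log2 change of -2.34 ± 0.49 (SE, adjusted p = 0.00173) with no overlap. THI2.1 (AT1G72260), a thionin, was at 2219, 953 and 209.7 units in the 10 kPa shoots, against 4424, 2463 and 2212 units in the 97 kPa shoots, and its groups overlapped. Its log2 change of -1.90 ± 0.51 (SE, adjusted p = 0.0164) rested on the third 10 kPa array, without which it was -0.98 (adjusted p = 0.247), and on the first 97 kPa array. Of 10 glucosinolate probe sets, 2 rose and 1 fell. BGLU28 (AT2G44460), a beta-glucosidase that is known to rise in sulfur shortage, was at 1612, 1285 and 698 units in the 10 kPa shoots, against 272, 279 and 193 units in the 97 kPa shoots, a log2 change of 2.17 ± 0.28 (SE, adjusted p = 2.20e-06) with no overlap. BGLU25 (AT3G03640), of the same family, rose by 0.83 ± 0.24 (SE, adjusted p = 0.0288), and BCAT4 (AT3G19710), which starts the lengthening of methionine for glucosinolates, fell by 0.81 ± 0.22 (SE, adjusted p = 0.0187), and both calls were lost without the first or the third 10 kPa array or the first 97 kPa array, that of BGLU25 also without the other 97 kPa arrays.

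Of 20 calcium signalling probe sets, 2 rose and 1 fell, with a median of 0.05. IQD23 (AT5G62070), of a family of calmodulin-binding proteins, rose by 0.88 ± 0.17 (SE, adjusted p = 5.47e-04), at 470.4, 521 and 372 units at 10 kPa and 189.7, 295 and 250.1 units at 97 kPa. IQD22 (AT4G23060) rose by 0.79 ± 0.25 (SE, adjusted p = 0.0435) and CML30 (AT2G15680), a calmodulin-like protein, fell by 1.78 ± 0.52 (SE, adjusted p = 0.0297). The IQD22 call was lost without the first or the third 10 kPa or the second or the third 97 kPa array. It was also lost after quantile normalization or median centring, with no filter and with no variance trend (adjusted p from 0.0531 to 0.0660). The CML30 call was lost without any single array but the first at 10 kPa, and with only the arrays of the comparison (adjusted p = 0.104). CML30 was at -0.90 (adjusted p = 0.346) without the third 10 kPa array, whose value of 11.7 units was far below the others at 186 and 76.5 units. HYH (AT3G17609), a light-signalling bZIP factor, was the 1 of 3 in its list that rose (33.3%, against 7.42% of all probe sets), at 0.90 ± 0.18 (SE, adjusted p = 8.37e-04).

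Lists with no call at 12 h were cell division (12 probe sets), ER folding (9), auxin (7), AP2/ERF factors (6), WRKY factors (5), NAC factors (2), nitrogen (2), and single probe sets for haemoglobin and ethylene, the clock, heat shock, cytosolic ribosomal proteins and MYB factors. By limma's unadjusted p under 0.05 they held 2, 1, 1, 2, 1, 0, 0, 1, 1, 0, 0 and 0 in that order, against 3037 of 15766 over all probe sets. The largest difference among them was that of SHN3 (AT5G25390), a regulator of cutin and wax, at 189.7, 189.7 and 206 units in the 10 kPa shoots, against 97.3, 16.1 and 18.6 units in the 97 kPa shoots. Its groups did not overlap, and the log2 difference was 2.29 ± 0.74 (SE, adjusted p = 0.0519), just outside the call. ORA47 (AT1G74930), an ERF factor, showed -1.29 ± 0.49, GH3.9 (AT2G47750), of the auxin-conjugating GH3 family, -0.66 ± 0.30, and HTB1 (AT1G07790), a histone H2B, 0.48 ± 0.17. In the phosphate and sulfur list BGLU28 was the 1 of 6 that rose (16.7%, against 7.42% of all probe sets).

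**Figure D4:**
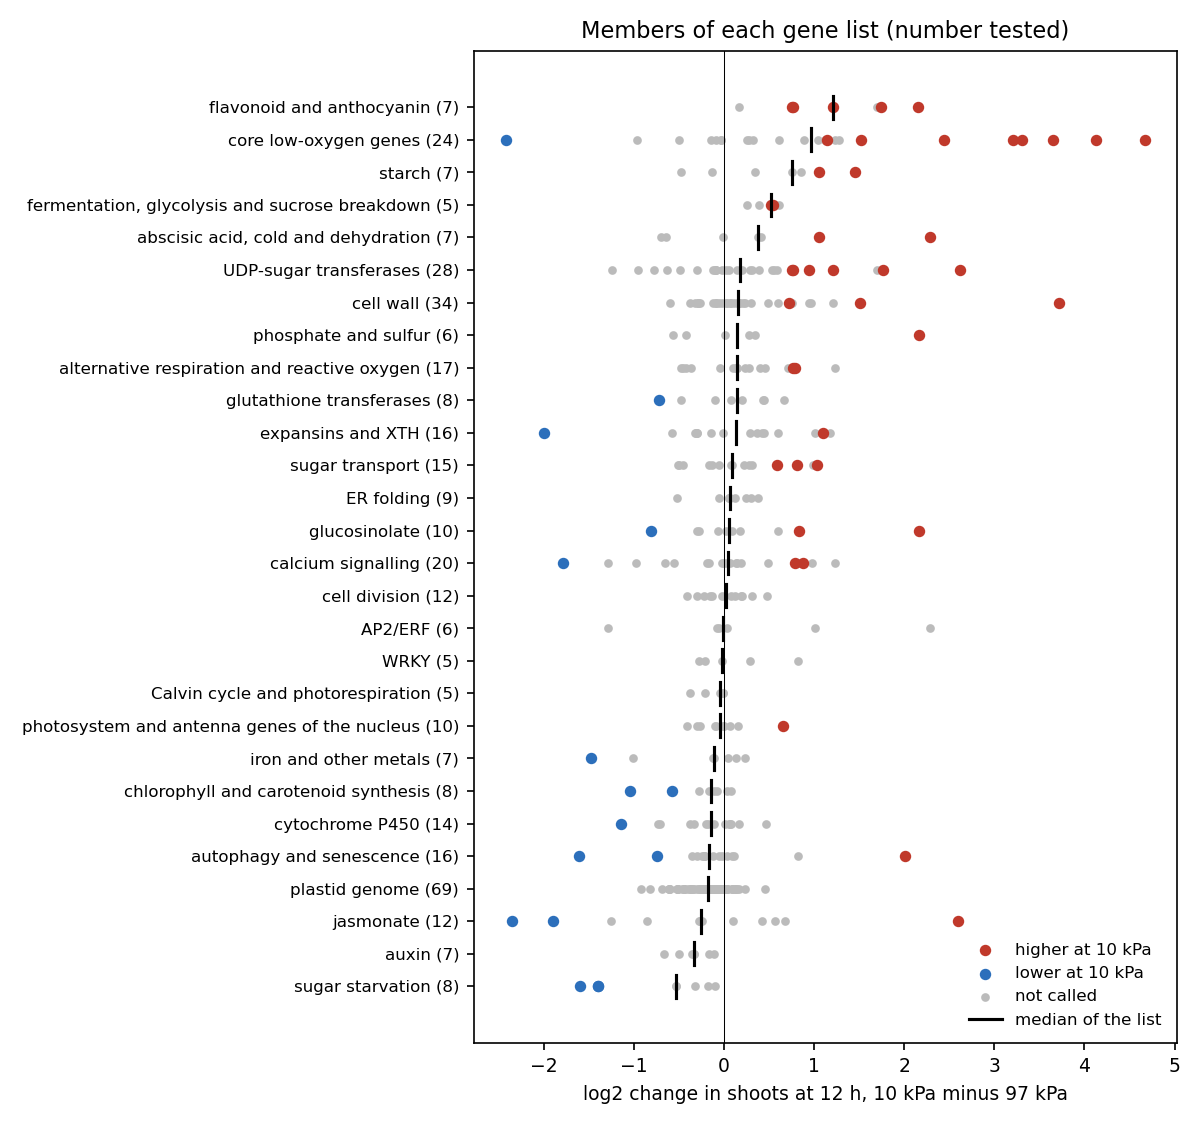
Each point is a probe set of a gene list (lists with 5 or more tested), at its log2 change in shoots at 12 h (10 kPa minus 97 kPa), red where higher at 10 kPa, blue where lower, grey where not called, with a bar at the list's median. The flavonoid list has the highest median at 1.21 and the sugar starvation list the lowest at -0.53, and the core low-oxygen list spreads from -2.42 to 4.67.

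Beyond the lists, the 12 largest named increases held 8 genes known here by locus number alone and 4 with a symbol. BETA-VPE (AT1G62710), a vacuolar processing protease known from seeds, was at 215, 432 and 352 units in the 10 kPa shoots, against 20.5, 59.98 and 70.8 units in the 97 kPa shoots, a log2 change of 2.59 ± 0.37 (SE, adjusted p = 1.40e-05). AT4G12500 was at 792, 344 and 808 units in the 10 kPa shoots, against 81.3, 111 and 41.5 units in the 97 kPa shoots, a log2 change of 2.91 ± 0.67 (SE, adjusted p = 0.00480). AT4G37295 was at 226, 494 and 269 units in the 10 kPa shoots, against 55.97, 90.3 and 7.63 units in the 97 kPa shoots, a log2 change of 2.76 ± 0.45 (SE, adjusted p = 8.24e-05). AT3G02480 was the exception in spread, at 39.5, 202 and 5385 units in the 10 kPa shoots, against 11.3, 22.8 and 13.3 units in the 97 kPa shoots. Its log2 change of 3.97 ± 1.16 (SE, adjusted p = 0.0285) rested on the third 10 kPa shoot, without which it was 2.06 (adjusted p = 0.339), and the call also ended without any 1 of the 97 kPa arrays.

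Of the 12 largest named decreases, 9 are known here by locus number alone. AT1G73120 had the largest, at 149, 18.9 and 32.8 units in the 10 kPa shoots, against 956, 1116 and 1465 units in the 97 kPa shoots, a log2 change of -4.37 ± 0.44 (SE, adjusted p = 3.76e-08). AT5G02160 was at 701, 334 and 505 units in the 10 kPa shoots, against 2630.3, 3421 and 2676 units in the 97 kPa shoots, a log2 change of -2.53 ± 0.20 (SE, adjusted p = 1.89e-10). In both, the lowest 97 kPa shoot was well above the highest 10 kPa shoot. UPB1 (AT2G47270), the UPBEAT1 bHLH factor known in roots as a regulator of peroxidases and of the onset of elongation, was at 2.44, 3.31 and 17.2 units in the 10 kPa shoots, against 124, 141 and 164 units in the 97 kPa shoots. Its 10 kPa values were near the floor of the array, so its log2 change of -3.30 ± 0.58 (SE, adjusted p = 2.46e-04) ranged from -4.78 to -1.45 with the pseudocount. AT3G15450 averaged 491 ± 307 units at 10 kPa and 4361 ± 2026 units at 97 kPa, a log2 change of -3.21 ± 0.69 (SE, adjusted p = 0.00245), and AT3G15630 averaged 213 ± 91.7 units at 10 kPa and 1254 ± 350.2 units at 97 kPa, a change of -2.57 ± 0.48 (SE, adjusted p = 4.61e-04). AT1G23390, AT2G37130 and P1R3 (AT3G29370) each fell by 2.31 on the log2 scale, with adjusted p-values of 2.50e-04, 3.06e-05 and 7.66e-06. AT3G53250, listed as SAUR57 of the small auxin upregulated RNA family, fell by 2.48 ± 0.68 (SE, adjusted p = 0.0189), and AT5G62280 fell by 2.50 ± 0.70 (SE, adjusted p = 0.0219). The calls of these last 2 genes ended when 1 array was left out, for AT3G53250 the first or the third at 10 kPa or the second or the third at 97 kPa, and for AT5G62280 the first or the second at either pressure. The pseudocount moved AT3G53250 between -3.13 and -1.20 and AT5G62280 between -3.15 and -1.24, and neither was called with no pseudocount (-3.13 (adjusted p = 0.0892) and -3.15 (adjusted p = 0.0679)).

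The 24 largest changes kept their sign over most of the time course. Of the 12 increases, 7 were called higher at 1 h, 8 at 3 h, 9 at 6 h, 10 at 48 h and 10 at 72 h. Of the 12 decreases, 4 were called lower at 1 h, 5 at 3 h, 9 at 6 h, 11 at 48 h and 11 at 72 h. More of all probe sets were called at the later times too, at 4.37%, 5.41%, 11.7%, 23.8% and 19.9% at 1, 3, 6, 48 and 72 h. None of the 24 was called in the opposite direction at another time. TBL26 was higher from 1 h on, with 2.39, 2.31, 3.53, 3.72, 2.69 and 3.32 at the 6 times in order. BETA-VPE was not called at 1 h (0.15) and was higher from 3 h (1.33) to 72 h (2.32). AT1G73120 was lower throughout, with its deepest value at 12 h and -1.57 at 72 h.

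**Figure D5:**
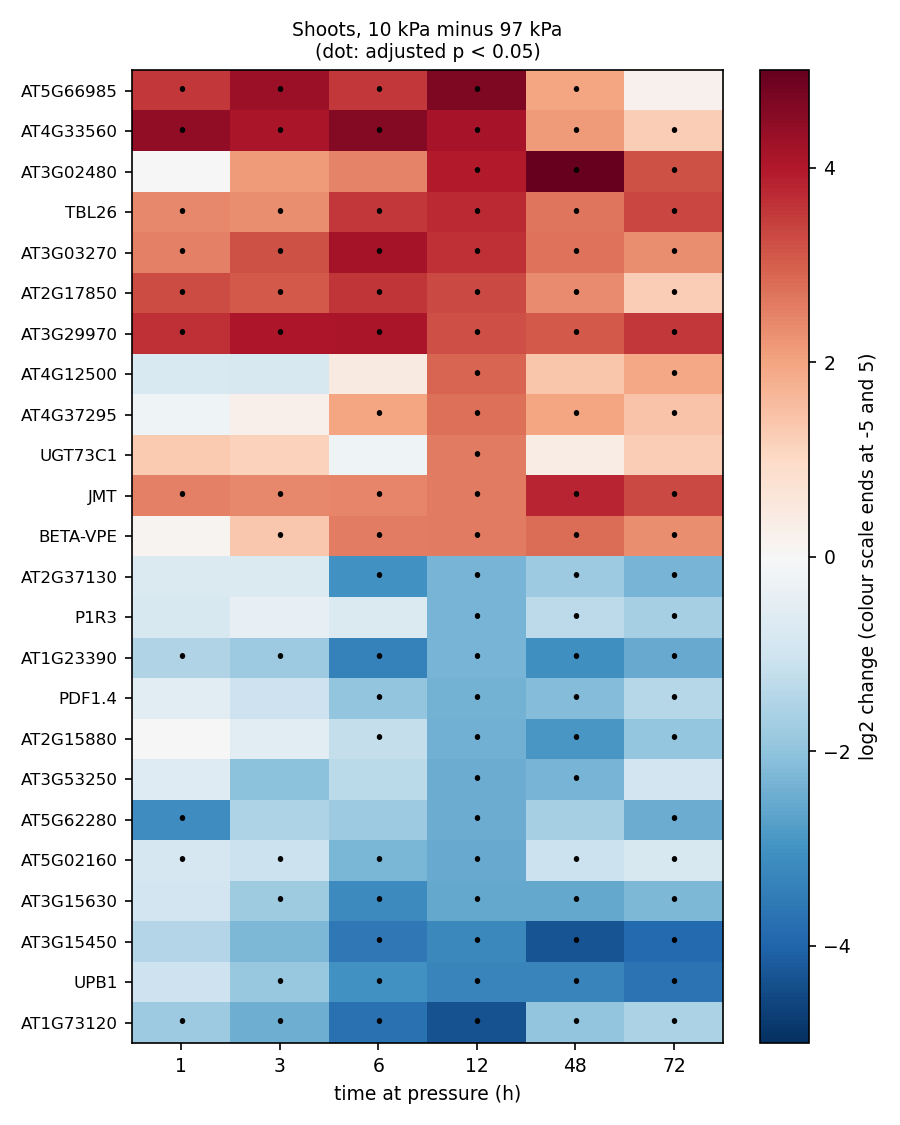
Log2 change in shoots (10 kPa minus 97 kPa) of the 12 largest named increases and the 12 largest named decreases of the 12 h comparison, in rows, at 1, 3, 6, 12, 48 and 72 h, in columns, with red for higher and blue for lower at 10 kPa and a dot where the change was called. The decreases gain dots with time, 4 at 1 h, 9 at 6 h and 11 at 72 h, while AT5G66985 and AT4G33560 are already dark red at 1 h. Calls over all probe sets also rose, from 4.37% at 1 h to 11.7% at 6 h and 19.9% at 72 h.

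Among the other times, the shoot changes at 6 h correlated best with those at 12 h. Of the 1170 called probe sets, 707 (60.4%) were also called in the same direction at 6 h, which is 38.2% of those called at 6 h, and 1 was called in the opposite direction. The same counts were 283 (24.2%) for 1 h, 363 (31.0%) for 3 h, 645 (55.1%) for 48 h and 603 (51.5%) for 72 h, which is 41.1%, 42.6%, 17.2% and 19.2% of the calls at those times. The share of all probe sets called also differed, at 4.37%, 5.41%, 11.7%, 23.8% and 19.9% at 1, 3, 6, 48 and 72 h, so these counts alone do not rank the times. Across probe sets, the changes at 12 h correlated at 0.41, 0.46, 0.63, 0.47 and 0.45 with those at 1, 3, 6, 48 and 72 h, on arrays that share no sample, and probe sets are not independent replicates. The test of the difference between 12 h and 6 h called 6 of 15766 probe sets (0.0381%), 2 with a higher and 4 with a lower pressure effect at 12 h, and 963 had an unadjusted p under 0.05. Of these 6, 4 name a gene. AT4G16146 was level at 12 h, at -0.20 ± 0.21, but had risen by 1.81 at 6 h, a difference of -2.01 ± 0.29 (SE, adjusted p = 6.64e-04). AT4G30660 fell by 0.94 ± 0.15 (SE, adjusted p = 6.61e-05) at 12 h, at 2244, 2670.04 and 2225 units at 10 kPa and 4728, 4703 and 4269.9 units at 97 kPa, where at 6 h it had risen by 0.54. The difference of -1.48 ± 0.21 (SE, adjusted p = 6.64e-04) was called, and so was that of its chromosomal neighbour AT4G30650, at -1.72 ± 0.32 (SE, adjusted p = 0.0179). AT4G30650 showed 0.11 ± 0.22 at 12 h, not called, and 1.82 at 6 h. AT2G41250 showed 0.24 ± 0.17 at 12 h, not called, and -0.99 at 6 h, a difference of 1.23 ± 0.24 (SE, adjusted p = 0.0427). Leaving out the first 97 kPa array at 12 h, among others, ended the calls of AT4G30650 and AT2G41250, at -1.64 (adjusted p = 0.110) and 1.09 (adjusted p = 0.155).

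Against the mean of 1 h and 3 h, 97 probe sets (0.615%) had a different pressure effect at 12 h, 58 of them higher and 39 lower, and 1669 had an unadjusted p under 0.05. BGLU28 was -0.95 at 1 h, a fall, -0.46 at 3 h and 0.54 at 6 h, neither of these called, and rose by 2.17 at 12 h and 4.09 at 72 h. Its difference was 2.87 ± 0.34 (SE, adjusted p = 3.11e-06). The other 4 of the 5 largest differences upward were AT4G12500 at 3.68 ± 0.83 (SE, adjusted p = 0.0267), AT5G64120, listed as peroxidase 71, at 3.20 ± 0.66 (SE, adjusted p = 0.0153), AT4G22470 at 3.09 ± 0.69 (SE, adjusted p = 0.0246) and AT4G37295 at 2.73 ± 0.55 (SE, adjusted p = 0.0120). AT5G64120 itself rose at 12 h, at 1683, 710.5 and 2112 units in the 10 kPa shoots, against 235, 409.5 and 439 units in the 97 kPa shoots, a log2 change of 1.94 ± 0.54 (SE, adjusted p = 0.0206). The 5 largest differences downward were AT2G19970 at -2.90 ± 0.72 (SE, adjusted p = 0.0495), AT3G20700 at -2.56 ± 0.58 (SE, adjusted p = 0.0267), AT4G11190 at -2.34 ± 0.47 (SE, adjusted p = 0.0114), AT1G73120 at -2.25 ± 0.54 (SE, adjusted p = 0.0454) and AT2G15880, given above. AT2G19970 lost its call under 12 of 17 alternatives, quantile normalization and median centring among them, and lay between -3.49 and -1.68 by the pseudocount. AT3G20700 was dim, at 25.5, 3.86 and 10.7 units at 10 kPa and 91.5, 63.6 and 84.04 units at 97 kPa, and lay between -3.48 and -1.10 by the pseudocount, with no call at the higher one. Of these 10 genes, BGLU28 was the one whose call held with any 1 of the 12 h arrays left out.

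Between the tissues, 931 of 17875 probe sets (5.21%) had a different pressure effect at 12 h in shoots than in roots, 516 of them with a higher and 415 with a lower value in shoots. This split depends on scaling, since 323 were higher and 530 lower after median centring of the arrays, against a median over all probe sets of 0.07 without it. The 12 h calls in shoots and roots come from the same tubes, so only this test of the difference is given. AT3G02480 and TBL26 had the largest differences upward, at 4.71 ± 1.41 (SE, adjusted p = 0.0345) and 3.99 ± 0.88 (SE, adjusted p = 0.00247). TBL26 in shoots averaged 823 ± 431 units at 10 kPa and 75.8 ± 70.1 units at 97 kPa, against 78.995 ± 23.8 units at 10 kPa and 99.2 ± 38.1 units at 97 kPa in roots (SD, n = 3 each). The AT3G02480 difference was 2.80 without the third 10 kPa shoot and no longer called, and 7 other single arrays also ended its call. DL1B (AT3G61760), a dynamin-like protein, averaged 51.6 ± 11.1 units at 10 kPa and 16.8 ± 20.4 units at 97 kPa in shoots, too low for the test within shoots, and 11.3 ± 7.82 units at 10 kPa and 99.97 ± 26.2 units at 97 kPa in roots, a difference of 3.97 ± 0.94 (SE, adjusted p = 0.00540) that lay between 1.56 and 5.72 by the pseudocount. AT5G62330 was near the floor in shoots, at 4.25 ± 1.28 units at 10 kPa and 7.81 ± 6.23 units at 97 kPa, and 8.16 ± 6.75 units at 10 kPa and 243 ± 131 units at 97 kPa in roots, a difference of 3.52 ± 0.79 (SE, adjusted p = 0.00276) that lay between 1.84 and 4.43 by the pseudocount. AT4G14695 was level in shoots (0.01 ± 0.32) and lower in roots (-3.34 ± 0.29), a difference of 3.34 ± 0.43 (SE, adjusted p = 2.77e-07).

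Downward, AT3G29970 and AT5G10040 of the low-oxygen list stood beside AT1G73120, AT5G26200 and AT4G30380. AT1G73120 was called lower in shoots and not in roots, averaging 66.8 ± 71.3 units at 10 kPa and 1179 ± 260.3 units at 97 kPa there and 236 ± 97.4 units at 10 kPa and 135 ± 48.3 units at 97 kPa in roots, and the difference was -5.12 ± 0.81 (SE, adjusted p = 2.21e-05). AT5G26200 averaged 123 ± 13.6 units at 10 kPa and 159 ± 43.1 units at 97 kPa in shoots, where it was not called, and 978 ± 303 units at 10 kPa and 36.6 ± 36.7 units at 97 kPa in roots, a difference of -5.0001 ± 0.76 (SE, adjusted p = 1.11e-05). AT4G30380, listed as the expansin-like B2 gene, was near the floor in shoots, at 2.86 ± 1.27 units at 10 kPa and 10.2 ± 9.19 units at 97 kPa, and 132 ± 31.8 units at 10 kPa and 3.91 ± 0.913 units at 97 kPa in roots, a difference of -4.03 ± 0.91 (SE, adjusted p = 0.00336). Both shoot groups and the 97 kPa roots were at or close to the pseudocount, which moved this difference between -6.46 and -1.57.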

How the data were processed

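Total RNA of shoots and roots was hybridised to Affymetrix ATH1 arrays. The deposited values are linear intensity signals per probe set, which the submitters' processing notes credit to MAS5 and Affymetrix Expression Console, and the trimmed mean of each array (2% off each end) was 500. The number of arrays limits the precision, and no detection calls were used.

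The 36 shoot arrays were fitted together in limma 3.58.1 (R 4.3.3) on log2(signal + 8.90), the pseudocount being the 10th percentile of all values, with 1 mean for each of 12 groups, a variance trend and 24 residual degrees of freedom. Probe sets above their array's 40th percentile on at least 3 arrays were tested, 15766 of 22810. The difference between tissues was fitted on all 72 arrays (17875 probe sets). P-values were adjusted by Benjamini-Hochberg over all tested probe sets, and those under 0.05 were called. Contrasts were 10 kPa minus 97 kPa at 12 h, that effect minus the effect at 6 h and minus the mean of 1 h and 3 h, and shoots minus roots.

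GEO's platform annotation named 1 gene for 13513 probe sets, several for 503 and none listed for 8794, and 13436 of the 13513 matched the RefSeq table of assembly TAIR10.1, used for names alone. Genes named in the text are the 12 largest called changes each way without overlap of the groups, the 5 largest differences each way of each other contrast, and up to 4 called members of each gene list, or 2 where none was called. Further members of the lists were named after their values were seen. Symbols that belong to an unrelated gene of the same letters (CYP59, CYP71, PAP85, CHI, STN1 and FDH) were taken out of the lists, and a probe set can stand in more than 1 list. The comparison, lists and tests were chosen with earlier results of these data known. In simulated data with 200 changed of 15766 probe sets, this 12 h test recovered 10% of changes of 0.5, 60% of changes of 1, 82% of changes of 1.5 and 96% of changes of 2 on the log2 scale, and 5 of 129 calls were false. The simulation used independent normal noise and far fewer changes than the 1170 calls in the data. Recovery under Benjamini-Hochberg depends on how many probe sets change, so these rates need not hold for the data.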

Additional observations from a re-analysis of the deposited data

Results flagged for a closer look

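The results below come from tests of a difference between 2 pressure effects (limma, Benjamini-Hochberg adjusted p under 0.05), and their causes were not tested.

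Between 12 h and 6 h in shoots, the pressure effect was lower at 12 h for AT4G16146 (-2.01 ± 0.29 (SE, adjusted p = 6.64e-04)), AT4G30650 (-1.72 ± 0.32 (SE, adjusted p = 0.0179)) and AT4G30660 (-1.48 ± 0.21 (SE, adjusted p = 6.64e-04)), and higher for AT2G41250 (1.23 ± 0.24 (SE, adjusted p = 0.0427)), as log2 differences.

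Between 12 h and the mean of 1 h and 3 h in shoots, the effect was lower at 12 h for AT2G19970 (-2.90), AT3G20700 (-2.56), AT4G11190 (-2.34), AT1G73120 (-2.25) and AT2G15880 (-2.16). It was higher at 12 h for AT4G37295 (2.73), BGLU28 (2.87), AT4G22470 (3.09), AT5G64120 (3.20) and AT4G12500 (3.68). BGLU28 was the one of these 10 that was called with any single 12 h array left out.

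Between shoots and roots at 12 h, the effect was lower in shoots for AT3G29970 (-5.14), AT1G73120 (-5.12), AT5G26200 (-5.0001), AT5G10040 (-4.22) and AT4G30380 (-4.03). It was higher in shoots for AT4G14695 (3.34), AT5G62330 (3.52), DL1B (3.97), TBL26 (3.99) and AT3G02480 (4.71). The call of AT3G02480 ended without any of 8 single arrays. The pseudocount moved AT4G30380 between -6.46 and -1.57, DL1B between 1.56 and 5.72 and AT5G62330 between 1.84 and 4.43.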

How the results depend on the processing

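Each count and each of 89 results on single genes was recomputed under other settings of the processing, and no single gene changed direction. The balance of higher and lower calls did turn. At 12 h (603 and 567) it was 511 and 615 after median centring, 200 and 242 with a 2-fold minimum, 445 and 467 without the first and 429 and 466 without the third 10 kPa array. For 12 h minus 1 h and 3 h (58 and 39) it was 45 and 50 under the replicate block, 24 and 28 with no variance trend, 31 and 42 without the first 10 kPa array and 10 and 11 without the first 97 kPa array. For 12 h minus 6 h (2 and 4) it was 5 and 4 with the higher pseudocount or the 60th percentile filter, 12 and 11 without the 48 and 72 h arrays and 9 and 5 without the second 10 kPa array, and for shoots minus roots (516 and 415) it was 323 and 530 after median centring. Of 1566 pairs of gene and alternative, 1387 kept direction and call and 179 lost the call, and 48 gene results kept theirs under every alternative. Apart from arrays left out singly, 12 gene calls were lost with no variance trend, 7 with no pseudocount, 6 each after quantile normalization, with no filter, under the replicate block and with only the arrays of the comparison, 4 after median centring, 2 with the higher pseudocount and 1 with the 60th percentile filter. For 10 kPa against 97 kPa at 12 h, a 2-fold minimum left 442 of 1170 calls, and 1666 probe sets were called without the 48 and 72 h arrays. Leaving out 1 array gave 716 to 940, with 716 without the third 97 kPa array, 720 without the second 10 kPa array and 747 without the second 97 kPa array. For 12 h minus 6 h, 3 probe sets in place of 6 were called with no variance trend, 23 without the 48 and 72 h arrays and 11 with only the arrays of the comparison. Leaving out 1 array gave 3 (the first 97 kPa array) to 18 (the first 10 kPa array), with 14 without the second 10 kPa array and 10 without the third 97 kPa array. For 12 h minus the mean of 1 h and 3 h, 58 in place of 97 were called with no filter on low values, 52 with no variance trend, 227 without the 48 and 72 h arrays and 208 with only the arrays of the comparison. Leaving out 1 array gave 21 (the first 97 kPa array) to 137 (the second 10 kPa array), with 40 without the third 10 kPa array, 61 without the second 97 kPa array and 53 without the third 97 kPa array. For shoots minus roots, 567 of 931 calls reached 2-fold, 1603 were called without the 48 and 72 h arrays, and leaving out 1 array gave 579 (the third 10 kPa root array) to 1081 (the second 10 kPa root array). The causes of these shifts were not tested, and fits that leave arrays out also rest on fewer arrays.

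With the replicate number as a replicate block, 1139 probe sets were called at 12 h, 12 for 12 h minus 6 h, 95 for 12 h minus 1 h and 3 h, and 886 for shoots minus roots. Same-numbered 12 h shoots of the 2 pressures deviated together at correlations of 0.02, -0.02 and 0.06, and not every array correlated best with its own number. With so few arrays at each pressure, these correlations cannot settle whether same-numbered arrays share more than a number. Under the block, UGT73C1 at 2.62 (adjusted p = 0.0645) and TBL28 at 0.72 (adjusted p = 0.0593) lost their calls at 12 h, and in 12 h minus 1 h and 3 h so did AT4G12500 at 3.68 (adjusted p = 0.0519), AT4G22470 at 3.09 (adjusted p = 0.0512), AT2G19970 at -2.90 (adjusted p = 0.0725) and AT3G20700 at -2.56 (adjusted p = 0.0588). Taking the tube as a random block gave 1087 calls for shoots minus roots, with a correlation of 0.06 between the arrays of a tube. The pseudocount moved 30 of the 89 values by over 1.5 times, 12 of them given with their ranges above. The others were, at 12 h, APL3 (0.99 to 1.57), AT2G15880 (-2.68 to -1.53), AT3G02480 (2.67 to 4.54), AT4G37295 (1.72 to 3.20), ATL8 (-1.79 to -0.94), BETA-VPE (1.72 to 2.85), CML30 (-2.07 to -1.05), CYP71B24 (-1.22 to -0.80), P1R3 (-2.59 to -1.39), SAG29 (1.18 to 2.32) and UF3GT (1.08 to 1.97), for 12 h minus 1 h and 3 h, AT1G73120 (-2.53 to -1.36), AT2G15880 (-2.39 to -1.37), AT4G11190 (-2.57 to -1.52) and AT4G37295 (1.68 to 3.19), and, for shoots minus roots, AT3G02480 (3.27 to 5.30), AT5G26200 (-5.51 to -3.53) and TBL26 (2.80 to 4.51).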

Other observations

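The called genes below lie outside the lists and were chosen after their values were seen. CYTC-2, a cytochrome c of the respiratory chain, was at 2465, 3143 and 2807 units in the 10 kPa shoots, against 1057, 1337 and 1199 units in the 97 kPa shoots, a log2 change of 1.22 ± 0.18 (SE, adjusted p = 2.93e-05). CYTC6A, a cytochrome c6-like protein of the chloroplast, was at 1652, 1223 and 1403 units in the 10 kPa shoots, against 2799, 3157 and 3069.7 units in the 97 kPa shoots, a change of -1.08 ± 0.14 (SE, adjusted p = 1.95e-06). FDH (AT5G14780), the mitochondrial formate dehydrogenase, fell by 0.89 ± 0.20 (SE, adjusted p = 0.00265), and cICDH, the cytosolic isocitrate dehydrogenase, changed by -0.47 ± 0.14 (SE, adjusted p = 0.0421). MDH (AT3G47520), a plastid malate dehydrogenase, rose by 0.52 ± 0.14 (SE, adjusted p = 0.0194), and VHA-A3, a subunit of the vacuolar proton pump, by 0.48 ± 0.15 (SE, adjusted p = 0.0467).

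The plastid chaperonin subunits Cpn60beta3 and Cpn60beta2 were higher by 0.82 and 0.50 and the chaperone Hsp70-2 by 0.82, and Fes1B and Fes1C were at -1.39 and -0.70. LPR1, the Low Phosphate Root1 oxidase that acts in the root response to phosphate, was at 97.9, 103 and 69.7 units in the 10 kPa shoots, against 23.7, 17.3 and 4.12 units in the 97 kPa shoots, a log2 change of 2.13 ± 0.49 (SE, adjusted p = 0.00410). HOS3-1, of the fatty acid elongase family, was at 470.1, 989 and 334 units in the 10 kPa shoots, against 122, 92.7 and 163 units in the 97 kPa shoots, a log2 change of 2.05 ± 0.36 (SE, adjusted p = 1.99e-04). BZIP61, a bZIP factor, was at 164, 119 and 185 units in the 10 kPa shoots, against 472, 477 and 494 units in the 97 kPa shoots, a change of -1.59 ± 0.24 (SE, adjusted p = 3.30e-05), and CCL at 6292, 2554 and 5289 units in the 10 kPa shoots, against 14958, 14526 and 13733 units in the 97 kPa shoots, a change of -1.71 ± 0.26 (SE, adjusted p = 3.81e-05). Of the serine carboxypeptidase-like genes, of which only called ones are given here, scpl46 and scpl48 were higher by 0.73 and 0.84, and scpl31 and SCPL34 were at -1.60 and -0.66. The groups did not overlap in CYTC-2, CYTC6A, LPR1, HOS3-1, BZIP61 and CCL. These genes were not run under the alternatives.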
